A study of Homo sapiens with 4 samples.

Results

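The core machinery of splicing was followed at the mRNA level through the 57 genes whose symbols begin with SNRP, SNRNP, SF3A, SF3B, U2AF, PRPF or LSM, out of 16708 genes listed in at least 1 library. The members were found by symbol alone, without use of their values, but the symbols were chosen with earlier results of these data known. All 57 were listed in every library and passed the limit for testing, a mean of at least 0.5 RPKM (reads per kilobase of gene, scaled to the library total). BEAS2B is a virus-transformed line of human bronchial epithelial cells, and the labels give lung bronchus as its tissue. The control cells (sh-Ctrl) carry a retroviral shRNA against luciferase and the knockdown cells (sh-QKI) carry 1 retroviral shRNA directed at all isoforms of QKI, an RNA-binding protein that regulates splicing. Each group has 2 libraries, numbered 1 and 2. Nothing in the sources used here ties the libraries of a group to separate cultures, so a p-value here reflects only how these libraries spread, and that spread may be purely technical.

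Spliceosomes remove introns from pre-mRNA. They are assembled from the small nuclear ribonucleoproteins (snRNPs) U1, U2 and the tri-snRNP of U4, U6 and U5, each an RNA with its own proteins. A ring of Sm proteins surrounds the RNA of U1, U2, U4 and U5, and a ring of LSm proteins sits at the end of U6. U1 marks the 5′ splice site and U2 the branch site, and a rarer class of introns is removed by a minor spliceosome with its own U11 and U12 particles. QKI is no core component. It binds RNA that holds the letters ACUAAC or ACUAAU and changes the choice of alternative exons.

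QKI mRNA was lower in both knockdown libraries. It was measured at 8.94 and 14.6 RPKM in sh-Ctrl 1 and 2 and at 2.52 and 3.85 RPKM in sh-QKI 1 and 2, a log2 difference of -1.64 within number 1 and of -1.80 within number 2. The recovered library totals were 20052951 and 20571555 reads for number 1 and 34706058 and 34862008 reads for number 2. Most of the variation between libraries followed the replicate number: 1 principal component held 93.8% of it and separated the numbers. Differences between numbers in the control cells and in the knockdown cells had a Pearson correlation of 0.953 across 11829 tested genes, which are not independent replicates. The study used reads of 50 and 75 nt in separate runs, and the sources used here do not say which library had which. Group differences are therefore given within each number (sh-QKI 1 minus sh-Ctrl 1, and sh-QKI 2 minus sh-Ctrl 2), on the log2(RPKM + 0.5) scale, which understates changes of low genes. With the replicate number as a term in the limma model, the QKI difference was -1.72 ± 0.13 (SE) with an adjusted p of 3.16e-33, and without it the adjusted p was 1.00. Of the epithelial markers, KRT8 and KRT18 were abundant, at between 91.5 and 248 RPKM, and KRT7 was at between 20.7 and 264 RPKM, whereas KRT19 and EPCAM stayed at or below 0.88 RPKM and CDH1 at or below 0.18 RPKM. Endothelial markers stayed at or below 0.23 RPKM, the leukocyte markers PTPRC and CD3E at or below 0.01 RPKM, and the fibroblast marker COL1A2 below 0.01 RPKM, with DCN at 0. CD14 was at between 0.79 and 5.22 RPKM, PDGFRB at between 7.11 and 11.8 RPKM and COL1A1 at between 18.7 and 54.1 RPKM.

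No member of the core splicing machinery passed the test. The limma test without a replicate term called 0 of the 57 members at an adjusted p under 0.05, and 0% of all 11829 tested genes. At an unadjusted p under 0.05, it held 0 members and 13 genes in all. With the replicate number as a term, limma called 0 members against 0.854% of all tested genes, or 101 genes, and the smallest adjusted p of a member was 0.122. Then 2 members, SNRPEL1 and SNRPN, had an unadjusted p under 0.05, as had 727 of all tested genes. The other model tried, voom of limma on recovered reads with the same term, called 0 members and 137 genes in all.

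The differences of the members were small and centred close to those of the whole table. The median log2 difference was 0.06 over the 57 members and 0.03 over all tested genes. Within number 1 the member median was 0.02 and within number 2 it was 0.11, beside 0.02 and 0.05 over all tested genes. The median size of a difference, whatever its direction, was 0.065 for the members and 0.081 for all tested genes. None of the 57 differed by more than 2-fold, a size reached by 12 of all tested genes. Only SNRPEL1 and SNRPN had mean differences beyond 0.25 in either direction, and the remaining 55 lay within it.

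**Figure D1:**
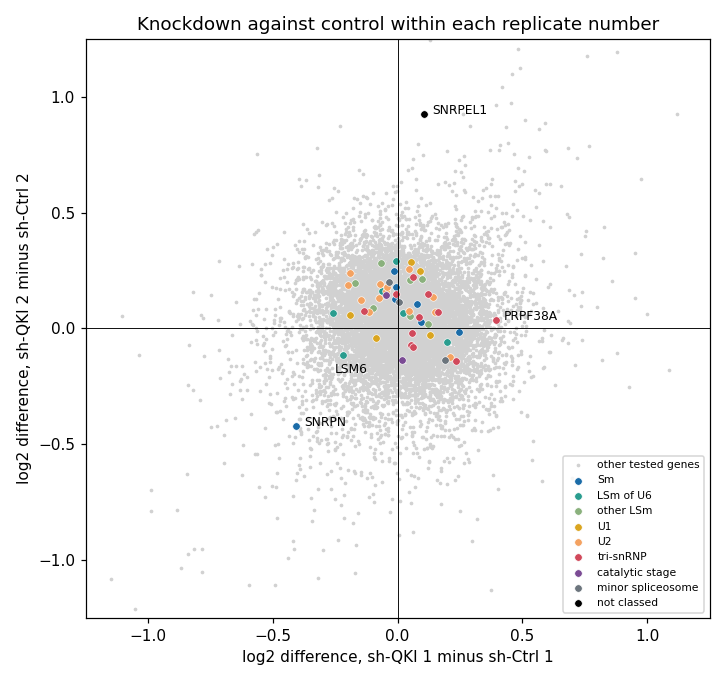
Each coloured point is 1 member by role, and grey points are the other tested genes, with a few outside the axes not drawn. The horizontal axis is the log2 difference sh-QKI 1 minus sh-Ctrl 1 and the vertical axis sh-QKI 2 minus sh-Ctrl 2; most members sit near the centre, SNRPN lies at -0.41 and -0.42, and SNRPEL1 at 0.11 and 0.93.

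Whether a member's difference had the same direction in both numbers was counted. In 34 of 57 members (59.6%) the signs within numbers 1 and 2 were opposite, beside 51.7% of all tested genes, and 23 of these members were lower in number 1 and higher in number 2. Another 20 members (35.1%) were higher in sh-QKI within both numbers, beside 31.7% of all tested genes. Lower values within both numbers were found in 3 members (5.26%), SNRPN, LSM6 and PRPF40B, beside 16.6% of all tested genes. Libraries of the groups did not overlap for 2 members that were higher in sh-QKI, SNRPEL1 and SNRNP40, against a background of 5.71%. They did not overlap for 1 member that was lower in sh-QKI, SNRPN, against 2.89%.

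The fit with the replicate number bounded these differences only under the spread that the model gave each gene. With the replicate term, the half-width of the 95% interval had a median of 0.23 on the log2 scale and reached at most 0.32. For 55 of the 57 members the whole interval lay between -0.5 and 0.5, that is, between 0.707-fold and 1.41-fold, and the exceptions were SNRPN and SNRPEL1. Each interval covers 1 gene, but its width came from a trend of spread with level over all genes. A gene's own spread between the numbers carried no visible weight in it. SNRPN, with -0.41 and -0.42 within the numbers, had an SE of 0.15. SNRPEL1, with 0.11 and 0.93, had one of 0.17. The same spread underlies the p-values of that fit, so the intervals do not show how well each gene repeated. Without the replicate term the median half-width was 1.01.

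**Figure D2:**
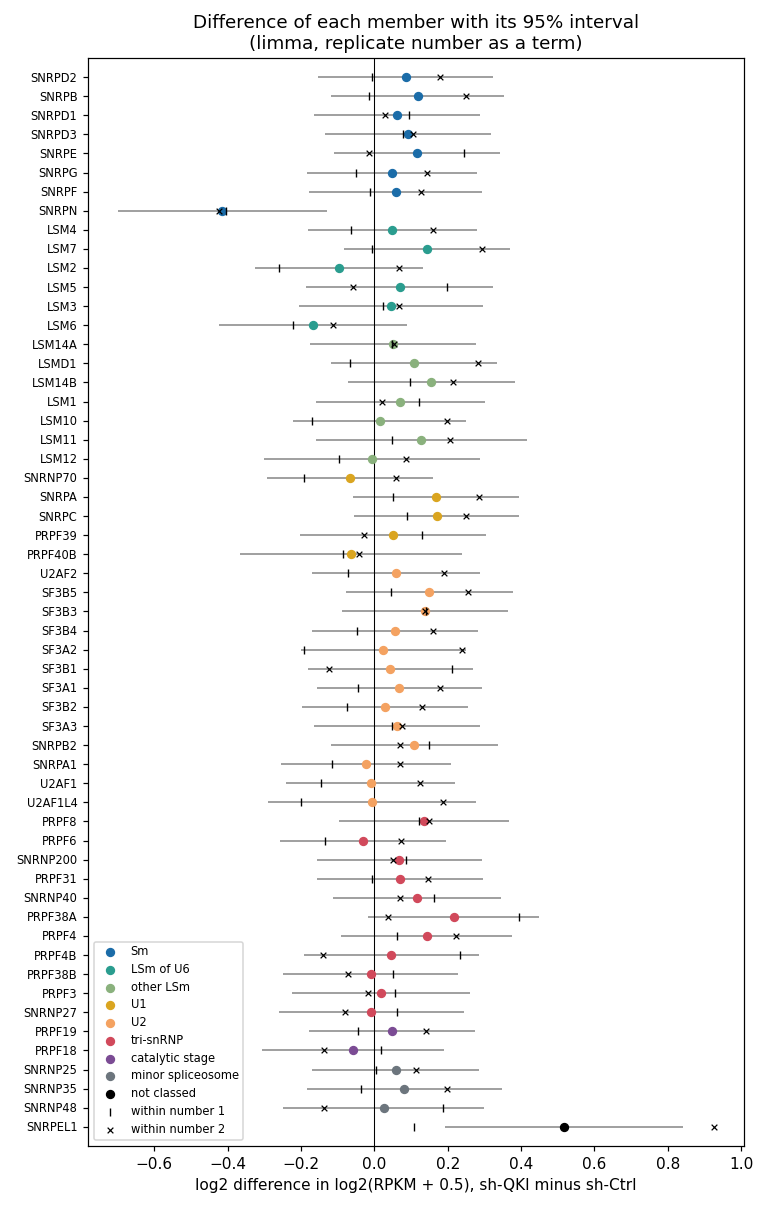
Coloured points are the log2 difference of 56 members (sh-QKI minus sh-Ctrl) from limma with the replicate number as a term, grey bars are 95% intervals, and black marks are the differences within number 1 (bars) and number 2 (crosses). All intervals drawn cross 0 except those of SNRPN (-0.70 to -0.13) and SNRPEL1 (0.19 to 0.84).

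QKI-type sequences were read in the annotated transcripts of the members to show where the letters occur. The 3 sites below belong to 3 of the 6 classed members with the largest mean difference; the other 3, SNRPN, SNRPC and SNRPA, held no match in the transcript searched. Coordinates are those of hg19, all on the plus strand, and capitals mark the letters searched.
PRPF38A, 3′ UTR, chr1:52882552-52882577: ttttgacccaACTAACcttgactgta
LSM6, 3′ UTR, chr4:147112472-147112497: gtagtctcccACTAATctgtagcgtc
LSM14B, coding exon, chr20:60705620-60705645: aaaccgtccaACTAACgttaaggaaa
The motifs ACTAAC and ACTAAT were searched on the sense strand of 1 spliced transcript per gene. They were found in 25 of 56 members (44.6%) and in 47.6% of all tested genes with a transcript, and of the 36 sites in members 27 were in 3′ UTRs. Per kilobase of transcript the members held 0.237 sites and all tested genes 0.248. The median log2 difference was 0.058 for the 25 members with a site and 0.059 for the 31 without. A match is only a run of letters, and introns, where splicing regulators often bind, were not searched.

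The Sm proteins form the ring at the heart of the U1, U2, U4 and U5 particles. Of 8 Sm genes, 2 were higher and 1 was lower in sh-QKI within both numbers, and the class median was 0.07. SNRPD2 (SmD2) had the highest level of the class averaged over the libraries, with 207 and 99.8 RPKM in sh-Ctrl 1 and 2 and 206 and 113 RPKM in sh-QKI 1 and 2. SNRPB, which encodes SmB, was measured at 183 and 101 RPKM in sh-Ctrl and at 181 and 119.6 RPKM in sh-QKI. For both genes the libraries of number 1 were the highest irrespective of group, and the groups overlapped. SNRPE (SmE) was at 29.8 and 39.5 RPKM in sh-Ctrl and at 35.4 and 39.1 RPKM in sh-QKI, a difference of 0.25 within number 1 and of -0.01 within number 2. SNRPD1, SNRPD3, SNRPF and SNRPG had mean differences between 0.05 and 0.09.

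SNRPN stood apart among the Sm genes. It encodes SmN, a paralog of SmB that is best known from neurons, and lies in an imprinted region at chr15:25068784-25223870 (hg19, plus strand). Its level was 3.65 and 3.80 RPKM in sh-Ctrl 1 and 2 and 2.63 and 2.71 RPKM in sh-QKI 1 and 2. Both knockdown libraries were below both control libraries, and the replicate numbers differed little. The log2 difference was -0.41 within number 1 and -0.42 within number 2. With the replicate term the difference was -0.41 ± 0.15 (SE) with an adjusted p of 0.210, so the call was not made. SNRPN and SNURF can be read from 1 transcript, and 29.5% of the annotated exon bases of SNRPN overlap other genes. SNURF, named here because of that overlap, was at 8.35 and 7.40 RPKM in sh-Ctrl and at 6.24 and 5.33 RPKM in sh-QKI, with an adjusted p of 0.120 with the replicate term. Reads of these genes may be shared, so they are not independent measurements. SNRPB, the more abundant paralog, had a mean difference of 0.12, with an interval from -0.12 to 0.35.

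Levels of the other 7 Sm genes spread widely although their proteins share a ring. The highest was 11.5 times the lowest in sh-Ctrl 1 (SNRPD2 and SNRPG) and 9.26 times in sh-Ctrl 2 (SNRPB and SNRPF), and in sh-QKI 1 and 2 the ratios were 11.9 and 10.0. Similar sequence elsewhere in the genome (at least 94% identity) covers 100% of the coding sequence of SNRPG, SNRPD1 and SNRPE and 98.1% for SNRPF. For SNRPD2, SNRPB and SNRPD3 it covers 0%. Because the authors left out ambiguous reads, levels of the covered genes may be understated, and the effect on these ratios was not tested. Recovered gene lengths were between 0.224 and 2.71 times the annotated exon length over 56 members. When levels were expressed per kilobase of annotated exon, the ratio over the 7 genes was 7.30, from SNRPD2 down to SNRPD1, so the order of levels between genes depends on the length used. Differences between libraries do not depend on it.

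**Figure D3:**
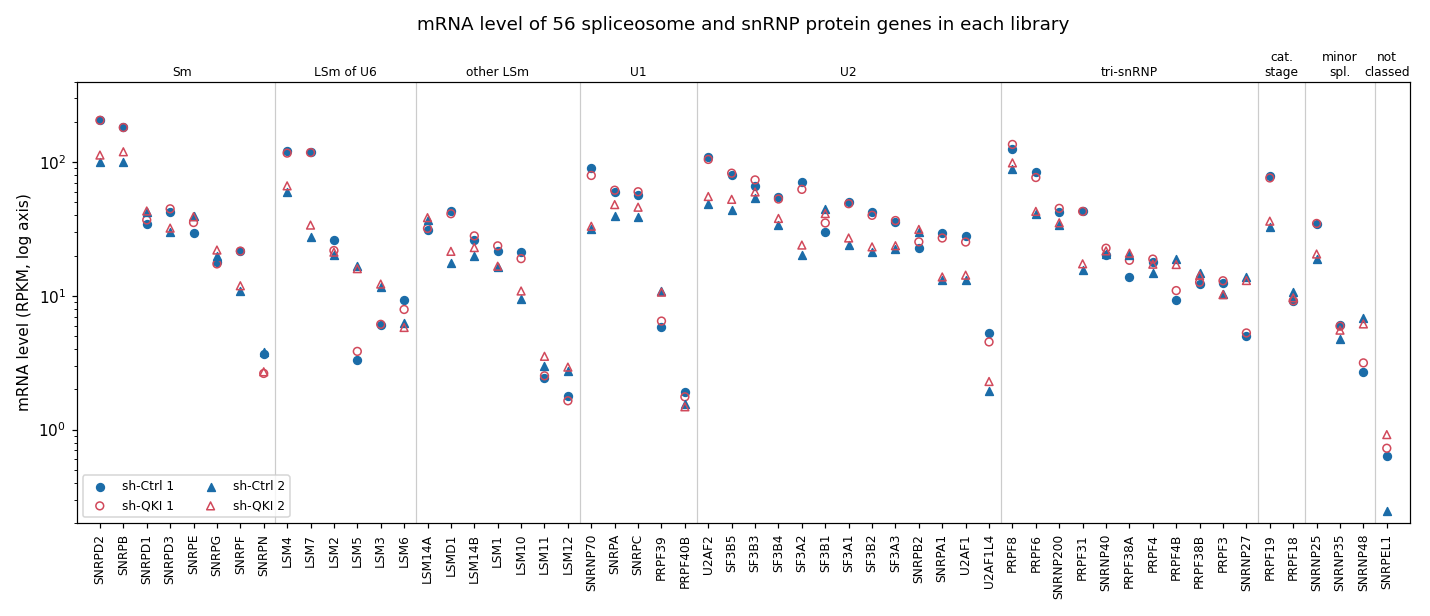
RPKM on a log axis for 56 members, ordered by role and then by mean level. Filled symbols are sh-Ctrl and open symbols sh-QKI, and circles are number 1 and triangles number 2; for most members the circles coincide and the triangles coincide, so that the spread follows the number.

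The LSm ring of U6 was represented by 6 genes, LSM2 to LSM7, and its class median was 0.05. LSM8 was not among the members, so nothing here covers it. LSM4 was at 122 and 59.4 RPKM in sh-Ctrl and at 117 and 66.5 RPKM in sh-QKI. LSM7 was at 118 and 27.5 RPKM in sh-Ctrl and at 118 and 33.8 RPKM in sh-QKI. Both genes were far lower in number 2 than in number 1, in both groups. LSM6 was at 9.31 and 6.32 RPKM in sh-Ctrl and at 7.91 and 5.80 RPKM in sh-QKI. It was the only ring gene with lower values within both numbers, and its difference of -0.17 ± 0.13 (SE) did not pass the test. LSM2 was at 26.2 and 20.2 RPKM in sh-Ctrl and at 21.8 and 21.2 RPKM in sh-QKI, lower within number 1 by a log2 difference of -0.26 and higher within number 2 by 0.07. The highest ring gene was 37.1 times the lowest in sh-Ctrl 1 (LSM4 and LSM5) and 9.40 times in sh-Ctrl 2 (LSM4 and LSM6). Per kilobase of annotated exon, on the mean over libraries, this ratio was 4.96.

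LSm genes outside the U6 ring serve other particles. Among the 7 genes counted here, LSM1 joins the cytoplasmic ring of mRNA decay, LSM10 and LSM11 belong to the U7 particle of histone mRNA processing, LSM14A and LSM14B are found in processing bodies, and LSMD1 is a subunit of an N-terminal acetyltransferase. The class median was 0.07, and 4 of 7 were higher within both numbers. LSM14A was at 30.9 and 37.0 RPKM in sh-Ctrl and at 32.0 and 38.4 RPKM in sh-QKI, a difference of 0.05 within each number. Its paralog LSM14B was at 26.3 and 19.7 RPKM in sh-Ctrl and at 28.1 and 23.0 RPKM in sh-QKI, with a mean difference of 0.16 and an interval from -0.07 to 0.38. The intervals of the paralogs overlap, and the difference between them was not tested. LSMD1 was at 43.2 and 17.6 RPKM in sh-Ctrl and at 41.2 and 21.5 RPKM in sh-QKI. LSM11 was low, at 2.42 and 2.99 RPKM in sh-Ctrl and at 2.53 and 3.53 RPKM in sh-QKI. For both of these the groups overlapped.

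The U1 particle recognises the 5′ splice site, and its 6 genes had a class median of 0.03, which is -0.003 after each library was centred on its median. Centring lowered the other class medians too, and the median over all members from 0.058 to 0.024. The specific U1 proteins SNRPA and SNRPC had the largest differences of the U1 class. SNRPA was at 59.5 and 39.4 RPKM in sh-Ctrl and at 61.7 and 48.1 RPKM in sh-QKI. SNRPC was at 56.4 and 38.6 RPKM in sh-Ctrl and at 60.1 and 46.0 RPKM in sh-QKI. Both were higher in sh-QKI within each number, with a mean difference of 0.17 and an interval from -0.06 to 0.39 for SNRPA and to 0.40 for SNRPC. Their groups overlapped, and the numbers differed more than the groups did. SNRNP70 (U1-70K) was at 90.9 and 31.8 RPKM in sh-Ctrl and at 79.5 and 33.2 RPKM in sh-QKI, with opposite signs within the numbers. It had the highest level of the class in the libraries of number 1, but lay below SNRPA and SNRPC in those of number 2. PRPF40B, a further U1 factor, was at 1.90 and 1.54 RPKM in sh-Ctrl and at 1.76 and 1.48 RPKM in sh-QKI, and 48.7% of its annotated exon bases overlap other genes.

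The U2 particle and its partners bind the branch site and the 3′ splice site. Among 13 genes, 4 were higher within both numbers, none was lower within both, and the class median was 0.06. U2AF2, the large subunit of the factor that reads the polypyrimidine tract, was at 110.2 and 48.4 RPKM in sh-Ctrl and at 105 and 55.3 RPKM in sh-QKI. U2AF1, the small subunit that contacts the AG of the 3′ splice site, was at 28.0 and 13.1 RPKM in sh-Ctrl and at 25.3 and 14.3 RPKM in sh-QKI. U2AF1L4, related to it, was at 5.28 and 1.95 RPKM in sh-Ctrl and at 4.53 and 2.29 RPKM in sh-QKI. All of these U2AF genes were lower in sh-QKI within number 1 and higher within number 2, with mean differences of 0.06, -0.01 and -0.01.

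In the SF3B complex, which clamps the branch site, SF3B5 and SF3B3 were higher in sh-QKI within both numbers. SF3B5 was at 80.2 and 44.1 RPKM in sh-Ctrl and at 82.7 and 52.7 RPKM in sh-QKI. SF3B3 was at 66.7 and 54.4 RPKM in sh-Ctrl and at 73.6 and 59.9 RPKM in sh-QKI. The difference of SF3B3 was 0.14 within each number, with an interval from -0.09 to 0.37, and it did not pass the test. SNRPB2, a protein specific to the U2 particle, was at 22.8 and 29.9 RPKM in sh-Ctrl and at 25.4 and 31.4 RPKM in sh-QKI. The other U2 genes, SF3A1, SF3A2, SF3A3, SF3B1, SF3B2, SF3B4 and SNRPA1, had mean differences between -0.02 and 0.07.

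Of 11 genes of the tri-snRNP and of the proteins that join it, 5 were higher within both numbers, none was lower within both, and the class median was 0.07. PRPF8, the large scaffold at the catalytic centre, was at 125 and 89.0 RPKM in sh-Ctrl and at 136 and 98.8 RPKM in sh-QKI, a difference of 0.12 within number 1 and of 0.15 within number 2. PRPF4, a U4 and U6 protein, was at 18.0 and 14.7 RPKM in sh-Ctrl and at 18.8 and 17.3 RPKM in sh-QKI. PRPF38A, which takes part in activation of the spliceosome, was at 13.9 and 20.3 RPKM in sh-Ctrl and at 18.5 and 20.9 RPKM in sh-QKI. Its value in sh-Ctrl 1 was the lowest of the 4, and the difference was 0.39 within number 1 but 0.04 within number 2. With the replicate term PRPF38A had a difference of 0.22 ± 0.12 (SE) and an adjusted p of 0.902. The related PRPF38B was at 12.2 and 14.9 RPKM in sh-Ctrl and at 12.6 and 14.2 RPKM in sh-QKI, and its mean difference was -0.01. SNRNP40, a U5 protein named after its values were seen, was at 20.3 and 20.7 RPKM in sh-Ctrl and at 22.7 and 21.7 RPKM in sh-QKI. It is the tri-snRNP gene whose groups did not overlap, with a mean difference of 0.12 and an interval from -0.11 to 0.35.

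The catalytic stage was represented by PRPF19 and PRPF18. PRPF19, a ubiquitin ligase that gives the Prp19 complex its name, was at 78.6 and 32.8 RPKM in sh-Ctrl and at 76.2 and 36.2 RPKM in sh-QKI. PRPF18, a factor of the second step of splicing, was at 9.08 and 10.7 RPKM in sh-Ctrl and at 9.20 and 9.68 RPKM in sh-QKI. Neither gene kept its sign in both numbers. The minor spliceosome was represented by 3 proteins of the U11 and U12 particle, with a class median of 0.06. SNRNP25 was at 34.7 and 19.0 RPKM in sh-Ctrl and at 34.8 and 20.6 RPKM in sh-QKI. SNRNP35 was at 6.09 and 4.77 RPKM in sh-Ctrl and at 5.93 and 5.54 RPKM in sh-QKI, and 44.0% of its exon bases overlap another gene. SNRNP48 was at 2.71 and 6.83 RPKM in sh-Ctrl and at 3.15 and 6.17 RPKM in sh-QKI. The groups overlapped for all of these genes.

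The largest positive value belonged to SNRPEL1, a single-exon copy of SNRPE at chr16:20250294-20250569 (hg19, minus strand) that GENCODE lists as a processed pseudogene, and that was given no role. It was at 0.638 and 0.246 RPKM in sh-Ctrl and at 0.726 and 0.917 RPKM in sh-QKI, from 6, 4, 7 and 15 recovered reads. The mean difference was 0.52 ± 0.17 (SE) with an adjusted p of 0.122 with the replicate term, with 0.11 within number 1 and 0.93 within number 2. So few reads leave its level uncertain, and SNRPE has 5 copies of at least 80% of its coding sequence, SNRPEL1 included. In all, 11 members had at least 1 such copy elsewhere in the genome, SNRPE, SNRPG, SNRPD1, SNRPF, SNRPB2 and PRPF38A among them. The authors left out reads that aligned ambiguously, so levels of these genes may be understated.

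Values of the members differed far more between replicate numbers than between groups, as they did over the whole table. Between numbers 36 members were lower and 19 higher in number 2 in both groups, and the median size of this log2 difference was 0.58, against 0.065 for the knockdown. Over all tested genes these median sizes were 0.497 and 0.081. By more than 2-fold, 12 of 57 members (21.1%) differed between numbers, beside 15.9% of all tested genes. LSM7 had the largest negative difference between numbers, -2.08 in sh-Ctrl and -1.79 in sh-QKI, and LSM5 the largest positive one, 2.18 in sh-Ctrl and 1.92 in sh-QKI. LSM5 was at 3.29 and 3.85 RPKM in the libraries of number 1 and at 16.7 and 16.0 RPKM in those of number 2. LSM5 and LSM7 encode proteins of the same ring, and LSM5 was named after its values were seen.

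The difference between numbers went with the base composition of the transcripts. Over 56 members with a transcript in the annotation, the mean difference between numbers and GC content had a Pearson r of -0.81 and a Spearman rho of -0.83. Over 11580 tested genes these values were -0.69 and -0.72. The members higher in number 2 had a median GC content of 39.7%, and those lower in number 2 one of 55.1%. LSM5, at 35.7% GC, and LSM7, at 58.7% GC, follow this order, as do SNRNP27 (38.0% GC, 1.37 in sh-Ctrl) and SF3A2 (66.5% GC, -1.80 in sh-Ctrl), also named after their values were seen. The points share the same 4 libraries, and genes are no independent replicates. Read length, preparation and culture cannot be told apart behind a replicate number. The knockdown difference averaged over the numbers had a Pearson r of -0.08 with GC content over the same members, and of 0.10 over 11580 tested genes. An average can hide opposite trends within the numbers, and GC content was not set against the difference within each number. Across the 57 members, differences within number 1 and within number 2 had a Spearman rho of -0.27 and a Pearson r of -0.02.

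**Figure D4:**
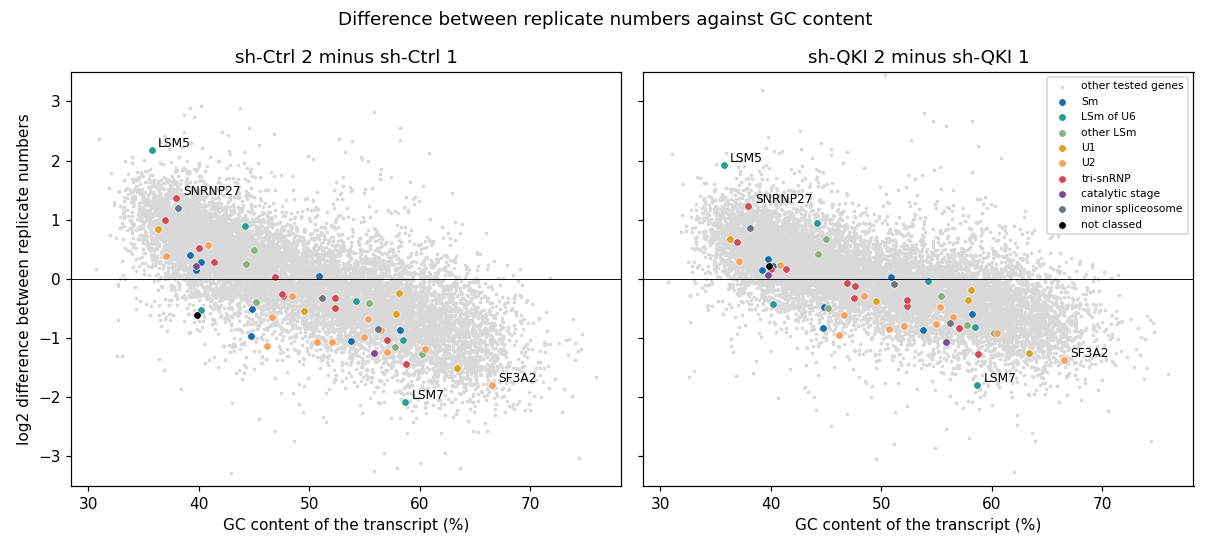
Log2 difference between replicate numbers (number 2 minus number 1) against the GC content of the transcript in percent, for sh-Ctrl on the left and sh-QKI on the right. Coloured points are members by role and grey points other tested genes, with a few outside the axes not drawn; points fall from the upper left to the lower right in both groups, with exceptions such as LSM6 (40.2% GC, -0.52 in sh-Ctrl and -0.42 in sh-QKI).

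Other genes of the pathway, from a list of spliceosome factors outside the symbol rule and of snRNP assembly factors, gave the same count. Of 79 listed genes 78 were tested, and limma called 0 without and 0 with the replicate term, as did voom with it. At an unadjusted p under 0.05, 0 genes passed without the replicate term and 2 with it. These 2, named after their values were seen, were DHX15, a helicase of spliceosome disassembly, with a log2 difference of 0.27 and an adjusted p of 0.542, and SMN1, an assembly factor, with 0.32 and an adjusted p of 0.747. SMN1 has a near-identical copy, SMN2, which was at 0 RPKM in both sh-Ctrl libraries and in sh-QKI 1 and at 0.0045 RPKM in sh-QKI 2. The authors left out ambiguous reads, so the level of SMN1 may be understated. The median difference of the 78 genes was 0.06, 46.2% were higher within both numbers and 10.3% lower, beside 31.7% and 16.6% of all tested genes, a difference that was not tested. SF1, which recognises the branch site before U2 arrives and whose binding sequence resembles that of QKI, was at 49.7 and 27.9 RPKM in sh-Ctrl and at 46.8 and 30.5 RPKM in sh-QKI. Its difference was -0.09 within number 1 and 0.13 within number 2, with an interval from -0.21 to 0.25 for the mean. The snRNP assembly genes had a median of 0.11, the highest of the classes in this list. Of these genes 11 of 16 (68.8%) were higher within both numbers, beside the same 31.7%. Tri-snRNP factors of the list came close, with a median of 0.09 and 6 of 10 higher within both numbers. The remaining class medians lay between -0.01 and 0.07, and differences between classes were not tested.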

How the data were processed

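Libraries were made from total RNA with a TruSeq kit, 2 from sh-Ctrl and 2 from sh-QKI cells. Single-end GAII reads were aligned by the authors to hg19 and to exon junctions of Ensembl genes with Bowtie (release not given in the sources used here). Up to 3 mismatches were allowed and ambiguous reads excluded. Each deposited table holds the RPKM of 1 library as the authors computed them. The sources used here give neither strand use nor gene lengths. A gene missing from a table was set to 0.

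Whole reads were recovered for 100% of 61702 values (relative tolerance 1e-11). Over genes they sum to between 1.35 and 1.53 times the library total, and the cause was not tested, so recovered reads give no precision for a gene. The limma trend test (limma 3.58.1, R 4.3.3) used log2(RPKM + 0.5) of the 11829 genes whose mean reached 0.5 RPKM. It was two-sided, and p-values were Benjamini-Hochberg adjusted over these genes, with a threshold of 0.05. The main fit had no replicate block. Replicate numbers are shared between groups, but nothing ties them to a culture or day. They were taken as a batch, and values within numbers are given beside pooled ones. Transcript GC content, positions and motif sites came from GENCODE on the same build, and copies of coding sequence (at least 94% identity) from BLAST 2.17.0. The test was also run on simulated reads, and no result given here rests on that run. Figures were drawn with matplotlib 3.10.9 in Python 3.11.15.

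Members and lists were chosen with earlier results of these data known. Named were, in each role, the member with the highest mean and up to 3 with the largest mean difference, members below the limit, members or other genes called, paralog pairs, SF1 and QKI. A member and a marker counted in the totals are not reported here by name or value. Other names are said to be chosen after values were seen. Alternatives were the block, centring, pseudocounts of 0.1 and 1, other limits, voom and leaving out each library. Levels per annotated exon length were added after the data were examined.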

Additional observations from a re-analysis of the deposited data

How the results depend on the processing

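In the 3 alternatives with the replicate block, 0 members and 0 other pathway genes were called. The 10 alternatives without it, each library left out included, also called 0, but QKI was called in 0 of them, so they say nothing about stability. In limma on log2 RPKM the block left the log2 differences as they were and changed their error: QKI went from an adjusted p of 1.00 to 3.16e-33 at a difference of -1.72, and with the block it was -1.75 after median centring and -1.88 by voom on recovered reads. With the block limma called 101 of 11829 genes, against 0 without it. The value of SNRPEL1 rested on how low values were treated: 0.52 in the main fit, 0.86 with a pseudocount of 0.1, 0.35 with a pseudocount of 1, 1.02 by voom and 1.00 by voom with the block. It was between 0.21, without sh-Ctrl 2, and 0.82, without sh-Ctrl 1. Without a block, leaving out 1 library also shifts the balance of the numbers, so values moved in both directions. The median over all members ranged from -0.12 to 0.30, so its sign turned too. The class medians ranged from -0.24 to 0.19 (Sm), -0.35 to 0.091 (LSm of U6), -0.046 to 0.30 (other LSm), -0.26 to 0.25 (catalytic stage), -0.11 to 0.25 (U1), -0.46 to 0.53 (U2), 0.00047 to 0.18 (tri-snRNP) and -0.081 to 0.24 (minor spliceosome).

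Signs turned for the following members when 1 library was left out, with the lowest and highest log2 difference: SNRPD2 -0.44 and 0.61, SNRPB -0.31 and 0.55, SNRPE -0.085 and 0.32, LSM4 -0.47 and 0.57, LSM7 -0.90 and 1.19, LSM2 -0.28 and 0.087, LSM6 -0.43 and 0.094, LSM14A -0.080 and 0.18, LSMD1 -0.53 and 0.74, LSM14B -0.046 and 0.36, LSM11 -0.079 and 0.34. In the U1 and U2 classes they were SNRNP70 -0.82 and 0.68, SNRPA -0.13 and 0.46, SNRPC -0.10 and 0.44, PRPF40B -0.18 and 0.051, U2AF2 -0.53 and 0.65, SF3B5 -0.28 and 0.58, SF3B3 -0.0094 and 0.29, SNRPB2 -0.082 and 0.30, U2AF1 -0.55 and 0.53, and U2AF1L4 -0.63 and 0.61. In the remaining classes they were PRPF8 -0.11 and 0.38, PRPF38A -0.049 and 0.48, PRPF38B -0.15 and 0.13, PRPF19 -0.58 and 0.67, PRPF18 -0.17 and 0.053, SNRNP25 -0.37 and 0.49, SNRNP35 -0.081 and 0.24, and SNRNP48 -0.57 and 0.62, and SF1 outside the members had -0.39 and 0.43. Median centring, with and without the block, gave -0.0084 for SNRNP48 and -0.014 for SF1, and voom with the block gave -0.013 for SNRNP48. U2AF1L4 was 0.0020 with a pseudocount of 0.1 and 0.022 by voom. None of these differences passed the test in any fit. SNRPN, SNRPEL1 and PRPF4 kept their sign in every alternative run, but PRPF4 was at 0.00047 without sh-Ctrl 2. Only members named by the rule, and SF1, were followed in this way. The runs with 1 library left out had no block, so a kept or turned sign there also reflects the difference between numbers. Levels per annotated exon length, added after the data were examined, moved 16 of 31 mean RPKM values by more than the spread between replicates.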
